A study of Sus scrofa with 6 samples.

Results

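Kinesins are motor proteins that use ATP to walk along microtubules or to take them apart. One branch builds the mitotic spindle and completes cell division, and another carries vesicles, organelles and messenger RNA through the cytoplasm. Granulosa cells, the somatic cells around the oocyte, divide while the follicle grows and secrete hormones, so they use motors of both kinds. The members described here are the genes of the deposited count table whose pig symbol is KIF or KIFC followed by a number and an optional letter. They number 39 of 35670 gene identifiers. By known role, 13 were mitotic, 17 were transport kinesins and 9 were placed in neither class (mostly ciliary, Hedgehog or less well defined motors). The microtubule depolymerase KIF2A was also placed there, though KIF2C, another such enzyme, was counted as mitotic. KIF4B, KIF6 and KIF25 had no matching symbol and are not analysed here. CENPE, a kinetochore kinesin without a KIF symbol, is not a member and is given with the partner genes.

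Stranded mRNA libraries were sequenced from primary pig (Sus scrofa) granulosa cells aspirated from small ovarian follicles and grown in serum-containing medium with antibiotics. Controls (n = 3) stayed at 37 °C, and heat-stressed cells (n = 3) spent 6 h at 42 °C. All 6 libraries shared the medium and the harvest by trypsin. The submitters number biological replicates, but no label says whether these came from separate animals or cultures, so the p-values reflect nothing beyond the spread among these 6 libraries.

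The libraries held between 18711440 and 29606378 counts. Those of a group were not equally alike. Across genes, Pearson's r was 0.990 for control 2 with control 3 and 0.991 for heat 1 with heat 2. Control 1 and heat 3 correlated most highly with each other, at 0.920. Values without control 1 and heat 3 are therefore given beside the members that were called or did not overlap, and beside the lists. The labelled cell type rested on part of its markers, as 6 of the 11 matched had enough reads to be tested. The granulosa transcripts INHBA (154 to 387 CPM, a gene's counts relative to the TMM-scaled library total) and CYP11A1 (29.0 to 69.6 CPM) were present. So were GATA4 (9.56 to 82.1 CPM) and FST (8.47 to 54.4 CPM), both lowest in control 2 and 3. INHBB (2.45 to 10.2 CPM) and NR5A1 (2.47 to 8.22 CPM) were low. FSHR did not exceed 2.14 CPM, AMH 0.279 CPM or INHA 0.306 CPM in any library. The sum of 6 stromal markers ranged from 3227 to 44323 CPM in controls, where control 1 was highest, and from 20575 to 63496 CPM in heat, where heat 3 was lowest. The sum of 6 leukocyte markers was 31.2 and 63.6 CPM in control 2 and 3 and between 1.31 and 4.34 CPM elsewhere. The sum of 5 smooth muscle markers was between 9984 and 10253 CPM in the controls, 6962 and 6727 CPM in heat 1 and 2 and 14696 CPM in heat 3. Among 5 neuronal markers the sum lay between 24.0 and 39.8 CPM in all libraries, with SNAP25, SYT1 and NEFL at 0.183 CPM or less. In bulk RNA, fewer cells of a type and less RNA per cell cannot be told apart.

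Of the 39 kinesin genes, 36 had enough reads to be tested. Heat was followed by lower levels of 3 spindle and cytokinesis motors, KIF20B, KIF11 and KIF15, and of the cilium-associated kinesin KIF27. The cargo motors KIF1C and KIFC3 rose. The remaining 30 did not pass the test. Thus 4 of 36 were called lower, where 4.32% of all 14242 tested genes were (edgeR quasi-likelihood test, adjusted p below 0.05). The 2 called higher made up 5.56%, near the 6.71% of all genes. Every heat library lay below every control for 12 of the 36 (33.3%; 16.8% of all tested genes) and above for 4 of 36 (20.9% of all tested genes).

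**Figure D1:**
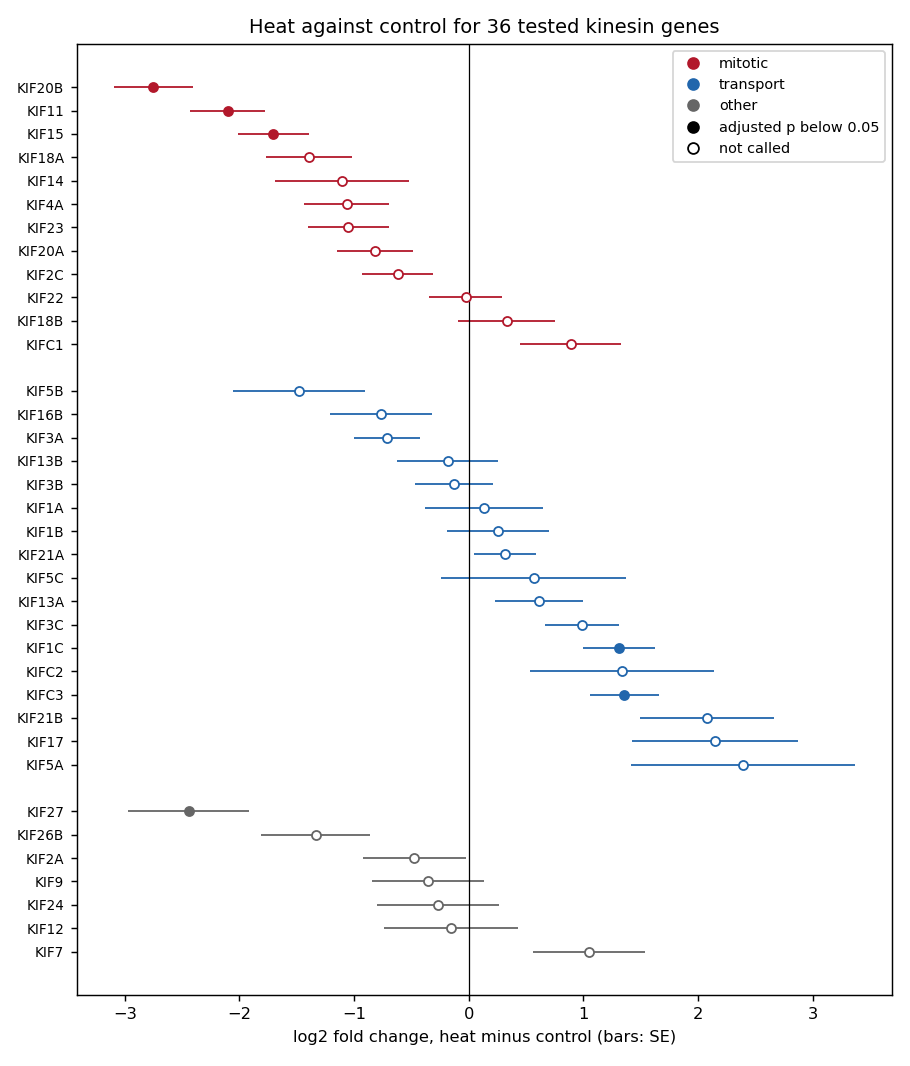
Log2 fold change (x axis, heat minus control) of the 36 tested kinesin genes, arranged by role; points are the edgeR estimates, bars their SE, and filled points have an adjusted p below 0.05. KIF20B (-2.75) and KIF27 (-2.44) lie farthest to the left, and most mitotic genes lie left of 0.

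Among mitotic kinesins the difference was greatest for KIF20B, a motor of the midbody that is needed to complete cytokinesis. Control 1, 2 and 3 held 138, 97.7 and 81.0 CPM, and heat 1, 2 and 3 held 14.5, 13.4 and 19.1 CPM. The groups were far apart, with no heat library near the lowest control. KIF20B fell from 106 ± 29.3 to 15.7 ± 2.99 CPM (SD, n = 3), and its log2 fold change was -2.75 ± 0.34 (SE; edgeR adjusted p = 0.0266). On Sscrofa11.1 the gene lies on chromosome 14 at 101512685 to 101594703.

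KIF11 slides antiparallel microtubules apart and so separates the spindle poles. Its levels were 90.6, 79.9 and 61.2 CPM in the controls and 14.8, 16.2 and 22.9 CPM in heat. All 3 heat libraries lay well below the controls, with heat 3 the highest of them. The fall was from 77.2 ± 14.9 to 17.96 ± 4.33 CPM, or -2.10 ± 0.33 in log2 units (edgeR adjusted p = 0.0276). KIF11 is on the same chromosome as KIF20B, at 104125839 to 104177381.

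KIF15 helps KIF11 to keep the spindle bipolar. It was at 25.0, 19.8 and 14.8 CPM in the controls and at 5.93, 6.42 and 5.93 CPM in heat, where the libraries hardly differed from each other. It fell from 19.9 ± 5.11 to 6.09 ± 0.280 CPM, or -1.71 ± 0.31 in log2 units (edgeR adjusted p = 0.0298). The gene is on chromosome 13 at 27966586 to 28041121. For these 3 genes, the log2 fold changes without control 1 and heat 3 were -2.70, -2.21 and -1.51.

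KIF18A, which damps chromosome movements at the metaphase plate, was at 33.9, 22.1 and 20.4 CPM in the controls and 7.98, 7.16 and 13.9 CPM in heat. The groups did not overlap, but its log2 fold change of -1.39 ± 0.38 just missed the threshold (edgeR adjusted p = 0.0535), and 13 of the 20 alternative analyses called it lower. It was -1.51 without control 1 and heat 3. In the RefSeq annotation KIF18A overlaps METTL15, so its reads are uncertain if strand was not used in counting.

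A further 4 mitotic kinesins had every heat library below every control and did not pass. The chromokinesin KIF4A had 35.5, 20.0 and 15.3 CPM in the controls against 10.1, 11.7 and 12.0 CPM in heat. KIF23, the motor of the centralspindlin complex at the division plane, was at 73.7, 46.5 and 34.4 CPM against 22.5, 23.2 and 28.9 CPM. For both genes control 1 was the highest library, and control 3 was not far above heat. Their log2 fold changes were -1.07 ± 0.37 and -1.05 ± 0.36 (edgeR adjusted p = 0.0912 and 0.0864), and -0.72 and -0.85 without control 1 and heat 3. KIF20A, which moves the chromosomal passenger complex to the central spindle, was at 32.4, 24.4 and 19.5 CPM against 11.4, 13.3 and 18.6 CPM. Control 3 and heat 3 were close neighbours for this gene, whose RefSeq span overlaps CDC23. The microtubule depolymerase KIF2C was at 12.6, 8.86 and 8.88 CPM against 6.18, 7.49 and 6.05 CPM, a narrow separation too, and its span overlaps the annotated locus C6H1orf228. KIF20A and KIF2C had log2 fold changes of -0.82 ± 0.33 and -0.62 ± 0.31 (edgeR adjusted p = 0.128 and 0.191), and -0.86 and -0.40 without control 1 and heat 3.

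In the other 4 tested mitotic kinesins the groups overlapped. KIF14, a cytokinesis motor that binds citron kinase, was at 24.3 CPM in control 1 and between 5.32 and 6.05 CPM in the 5 other libraries. Its log2 fold change was -1.11 ± 0.58 (edgeR adjusted p = 0.216) and became -0.071 without control 1 and heat 3, so the difference rested on control 1. KIF22, which pushes chromosome arms away from the poles, had a log2 fold change of -0.027 ± 0.32, and its sign changed with the setting. KIF18B, a regulator of astral microtubules, was at 2.00, 1.22 and 1.29 CPM in the controls and 2.04, 2.19 and 1.44 CPM in heat. KIFC1, a minus-end motor that focuses spindle poles, ran the other way in heat 1 and heat 2 only. The controls had 4.21, 2.71 and 2.93 CPM, heat 1 and 2 had 7.73 and 7.35 CPM, and heat 3 had 3.15 CPM (log2 fold change 0.89 ± 0.44, edgeR adjusted p = 0.194). KIF2B had no read in any library, which allows up to 0.0516 CPM over the controls and 0.0403 CPM over the heat libraries; such limits, set at 3 reads, cover counting error only.

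**Figure D2:**
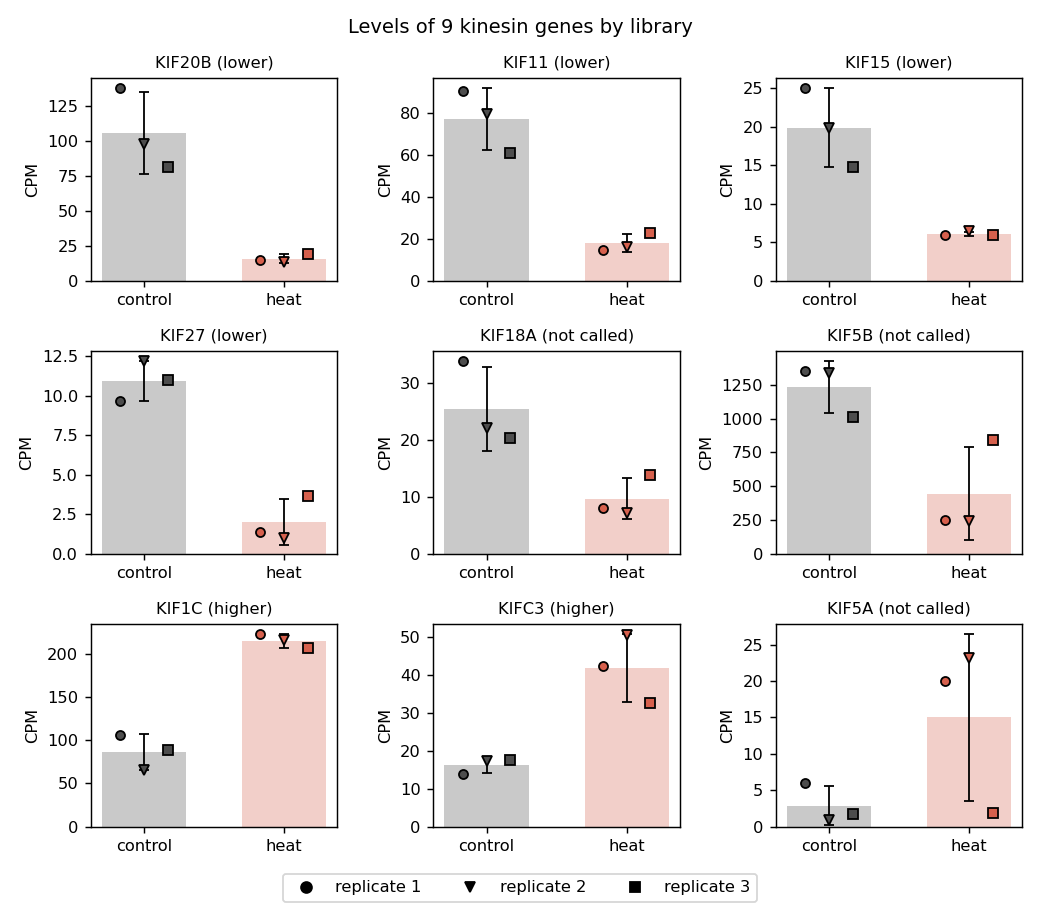
TMM-scaled CPM (y axis, starting at 0) of 9 kinesin genes in control and heat; bars are means of 3 libraries, error bars SD (cut at 0), and the marker shape gives the replicate number. KIF20B, KIF11, KIF15 and KIF27 separate fully in the lower direction and KIF1C and KIFC3 in the higher, while heat 3 lies apart from heat 1 and 2 for KIF5B (841 CPM) and KIF5A (1.93 CPM).

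Of the 17 transport kinesins 2 passed the test, both higher in heat. KIF1C, which carries dense core vesicles and integrins, was at 106, 65.1 and 88.3 CPM in the controls and 222, 216 and 206 CPM in heat. The heat libraries were close together and all well above the highest control. KIF1C rose from 86.6 ± 20.7 to 215 ± 8.02 CPM (SD, n = 3), or 1.31 ± 0.32 in log2 units (edgeR adjusted p = 0.0425; 0.0537 when genes were not filtered). It is on chromosome 12 at 51899762 to 51924465 and overlaps INCA1 in the annotation.

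KIFC3, a minus-end motor of the Golgi and of adherens junctions, was at 13.9, 17.2 and 17.7 CPM in the controls and 42.3, 50.4 and 32.5 CPM in heat. Its groups were clearly apart, with heat 3 nearest to the controls. The rise was from 16.3 ± 2.07 to 41.7 ± 8.99 CPM, or 1.36 ± 0.30 in log2 units (edgeR adjusted p = 0.0384). The gene is on chromosome 6 at 19659987 to 19696104, where it overlaps an uncharacterised RefSeq locus. Without control 1 and heat 3 the log2 fold changes were 1.49 for KIF1C and 1.39 for KIFC3.

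KIF5B, the widely expressed heavy chain of conventional kinesin, had 1349.6, 1340.1 and 1012 CPM in the controls, 246 and 239.9 CPM in heat 1 and 2, but 841 CPM in heat 3. The groups did not overlap, but heat 3 was nearer to the controls than to the other heat libraries. KIF5B did not pass (log2 fold change -1.48 ± 0.58, edgeR adjusted p = 0.119). Without heat 3 alone the value was -2.36, and without control 1 as well it was -2.30; the gene was called lower in both fits. KIF5A, the neuronal paralog, stood apart in the same libraries in the other direction. Heat 1 and 2 had 20.0 and 23.1 CPM, heat 3 had 1.93 CPM and the controls had 6.01, 0.917 and 1.74 CPM. Its log2 fold change was 2.39 ± 0.98 (edgeR adjusted p = 0.132), and its span overlaps DCTN2. KIF5C, the third paralog, did not exceed 0.886 CPM (log2 fold change 0.57 ± 0.81, edgeR adjusted p = 0.638).

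The pair can be read within a library, where depth and scaling cancel. There were 0.445, 0.0684 and 0.171 KIF5A reads per 100 KIF5B reads in control 1, 2 and 3. Heat 1 and heat 2 had 8.12 and 9.63, and heat 3, at 0.229, was within the control range. Ratios of KIF1C to KIF1B, a motor for mitochondria and synaptic vesicle precursors, followed the same libraries. They were 34.8, 29.3 and 44.2 reads per 100 in the controls, 108 and 110.0 in heat 1 and 2, and 44.1 in heat 3. KIF1B itself was at 468 CPM in heat 3 and between 196 and 306 CPM in the other libraries (log2 fold change 0.26 ± 0.44, edgeR adjusted p = 0.702). The ratio of the mitotic paralogs KIF20B and KIF20A separated all libraries by group. The controls had 426, 400.4 and 416 reads per 100, and the heat libraries 128, 101 and 103. The mitotic pair KIF11 and KIF15 did not separate, with 362, 403 and 413 KIF11 reads per 100 KIF15 reads in the controls, 249 and 253 in heat 1 and 2, and 386 in heat 3. The transport pair KIF3C and KIF3B did, with 79.5, 40.5 and 42.5 in the controls and 132, 143 and 91.3 in heat. Separation by group thus occurred in 1 of 2 mitotic and 1 of 3 transport pairs. These 5 pairs were chosen after their values were seen, so they are given without a test.

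**Figure D3:**
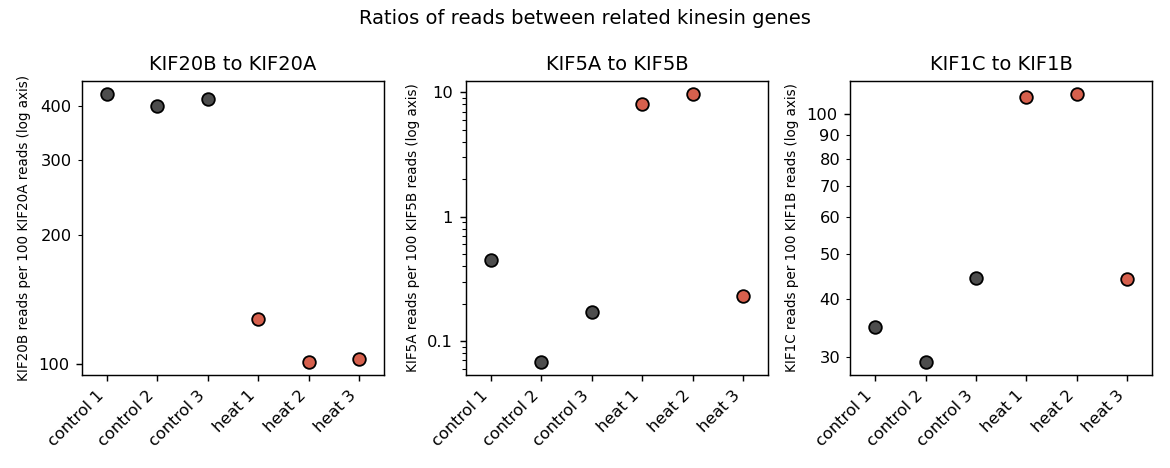
Reads of one kinesin gene per 100 reads of a related one (y axis, log scale) for 3 of the 5 pairs in each of the 6 libraries, controls in grey and heat in red. KIF20B to KIF20A separates the groups (400.4 to 426 against 101 to 128), whereas heat 3 lies with the controls for KIF5A to KIF5B (0.229) and KIF1C to KIF1B (44.1).

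The kinesin-2 motor, a trimer of KIF3A, KIF3B or KIF3C and the adaptor KIFAP3, drives transport in cilia. KIF3A was at 61.1, 89.0 and 85.1 CPM in the controls and 45.2, 51.7 and 46.3 CPM in heat, without overlap (log2 fold change -0.72 ± 0.29, edgeR adjusted p = 0.124). Its RefSeq span overlaps IL13, IL4 and RAD50. KIF3C was at 21.7, 12.3 and 13.5 CPM in the controls and 28.9, 29.0 and 36.3 CPM in heat, so every heat library was higher (0.99 ± 0.32, edgeR adjusted p = 0.0792). KIF3B overlapped between groups, with 27.3, 30.3 and 31.9 CPM against 21.8, 20.3 and 39.8 CPM. KIFAP3 was at 159 ± 30.2 CPM in controls and 71.8 ± 34.2 CPM in heat (-1.15 ± 0.40, edgeR adjusted p = 0.0926). None of these 4 genes passed. Without control 1 and heat 3 the log2 fold changes were -0.87 for KIF3A, 1.14 for KIF3C, -0.58 for KIF3B and -1.76 for KIFAP3.

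KIF21B, which limits microtubule growth, was at 3.61, 1.05 and 1.64 CPM in the controls and 10.9, 11.3 and 4.28 CPM in heat. The heat libraries were all higher, but heat 3 was only just above control 1 (log2 fold change 2.08 ± 0.59, edgeR adjusted p = 0.0577), and without both of them it was 3.03. KIF17, a homodimeric ciliary and dendritic motor, was at 0.734, 0.218 and 0.595 CPM in the controls, 3.09 and 3.02 CPM in heat 1 and 2 and 0.703 CPM in heat 3. KIFC2 was similarly higher in heat 1 and 2 (2.59 and 2.98 CPM) than in heat 3 (0.275 CPM) or the controls (0.645 to 1.00 CPM). The endosome motor KIF16B had 19.9 and 20.6 CPM in heat 1 and 2, but 54.6 CPM in heat 3 and 48.5 to 60.1 CPM in the controls. KIF13A, which carries cargo from endosomes, had 66.8, 66.3 and 73.3 CPM in heat, 71.4 CPM in control 1, but 33.5 and 30.0 CPM in control 2 and 3. None of the last 4 passed (edgeR adjusted p = 0.0852, 0.268, 0.252 and 0.291), nor did KIF13B, KIF1A and KIF21A, with log2 fold changes between -0.18 and 0.32. In the libraries where KIF5A, KIF17 and KIFC2 were high, the epithelial marker KRT7 was also high, at 61.7 and 95.4 CPM against 7.76 CPM in heat 3 and 2.23 to 17.3 CPM in the controls. The other epithelial markers did not follow these libraries: KRT8 was at 7.93, 11.7 and 11.6 CPM in heat 1, 2 and 3, KRT18 did not exceed 0.325 CPM and EPCAM had no read. The sum of these 4 markers was 69.7, 107 and 19.5 CPM in heat and 3.71 to 22.2 CPM in the controls, and its part in these differences was not tested. The neuronal marker TUBB3 was highest in heat 1 and 2 too, at 13.9 and 12.9 CPM. It was at 7.85 CPM in heat 3 and 2.58 to 7.68 CPM in the controls. MAP2 did not follow these libraries, with 25.7 and 23.0 CPM in heat 1 and 2 and 16.2 to 35.8 CPM in the controls. The part of these neuronal markers was not tested either.

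Outside the mitotic and transport classes, KIF27, a relative of the Hedgehog motor KIF7 that is linked to motile cilia, was at 9.68, 12.2 and 11.0 CPM in the controls and 1.35, 0.976 and 3.64 CPM in heat. Every control was far above the highest heat library, heat 3. It fell from 10.96 ± 1.25 to 1.99 ± 1.44 CPM, or -2.44 ± 0.53 in log2 units (edgeR adjusted p = 0.0379), and -3.34 without control 1 and heat 3. KIF27 is on chromosome 10 at 31026133 to 31117900 and overlaps an uncharacterised locus. KIF7 itself, which works at the cilium tip, was at 22.8, 10.8 and 9.97 CPM in the controls, 37.8 and 37.7 CPM in heat 1 and 2 and 14.7 CPM in heat 3 (1.05 ± 0.49, edgeR adjusted p = 0.170). Markers of motile ciliated cells were nearly absent, since the sum of 5 such genes lay between 0.868 and 1.59 CPM and DNAI1 had no read.

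KIF26B was at 9.15, 5.37 and 5.80 CPM in the controls and 2.19, 1.53 and 4.25 CPM in heat, without overlap (-1.34 ± 0.47, edgeR adjusted p = 0.0952, and -1.61 without control 1 and heat 3). Its paralog KIF26A had 0 reads in the controls and 53, 61 and 9 reads in heat 1, 2 and 3. It was too low for the test with all libraries. Set against a limit of 3 reads over the control group, its pooled heat reads were at least 32.0-fold higher. Heat 3 was at 0.275 CPM, against 2.64 and 2.84 CPM in heat 1 and 2. Without control 1 and heat 3 it was tested, and its log2 fold change was 8.85, a value that rests on 0 control reads. KIF19, a depolymerase of cilium tips, was too low as well. Its 2 control reads and 23 heat reads, pooled over libraries, gave a scaled ratio of 8.99 (95% interval 2.22 to 78.6, for counting error alone). By library there were 0, 0 and 2 reads in the controls and 12, 9 and 2 in heat, so the groups overlapped. The depolymerase KIF2A was at 98.3, 107 and 104 CPM in the controls and 49.3, 44.1 and 129 CPM in heat, with heat 3 the highest of all libraries (-0.47 ± 0.45, edgeR adjusted p = 0.474); it overlaps DIMT1 in RefSeq. The value was -1.20 without control 1 and heat 3. The smooth muscle actin ACTA2 followed the same libraries, at 5599.8, 5547 and 5648 CPM in the controls. Heat 1 and 2 had 3584 and 3479.7 CPM of it, and heat 3 had 8973 CPM. CNN1, DES and TAGLN were also highest in heat 3 (583, 1244 and 2693 CPM), but heat 1 was not below every control for them. MYH11 was lowest in heat 3, at 1203 CPM. The part of these markers in the level of KIF2A was not tested. KIF9, KIF12 and KIF24 did not pass, with log2 fold changes of -0.36 ± 0.49, -0.16 ± 0.59 and -0.27 ± 0.53.

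Mitotic and transport kinesins were then set side by side. Of 12 tested mitotic genes 3 were called lower (25.0%, where 4.32% of all tested genes were) and 0 higher (6.71% of all). Of 17 transport genes 0 were called lower and 2 higher (11.8%), against the same background shares. At an unadjusted p below 0.05 edgeR gave 0 higher mitotic and 2 lower transport genes, and the share of all genes at that threshold is not given here. DESeq2 called 0 and 1, where it called 2118 higher and 1792 lower of all 14242 tested genes. Every heat library lay below every control for 8 mitotic (66.7%) and 2 transport genes (11.8%), and above for 0 and 4 (23.5%). The non-overlapping shares of transport genes are near those of all tested genes given above. The median log2 fold change was -1.06 over mitotic and 0.57 over transport kinesins, against 0.052 over all tested genes. These medians were -0.78, 0.25 and 0.056 without control 1 and heat 3. Within roles the spread was wide, from -2.75 to 0.89 for mitotic and from -1.48 to 2.39 for transport genes. Library by library, the mitotic genes had a median deviation from their control mean of 0.37, -0.13 and -0.33 in the controls, on the log2(CPM + 1) scale. In heat 1, 2 and 3 this median was -1.06, -0.87 and -0.75. All heat libraries were thus lower than all controls in this median. Transport genes had medians of 0.19, -0.10 and -0.10 in the controls and 0.45, 0.42 and 0.41 in heat. No test of the difference between the roles was made, because the members were grouped with results known and genes are not replicates.

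**Figure D4:**
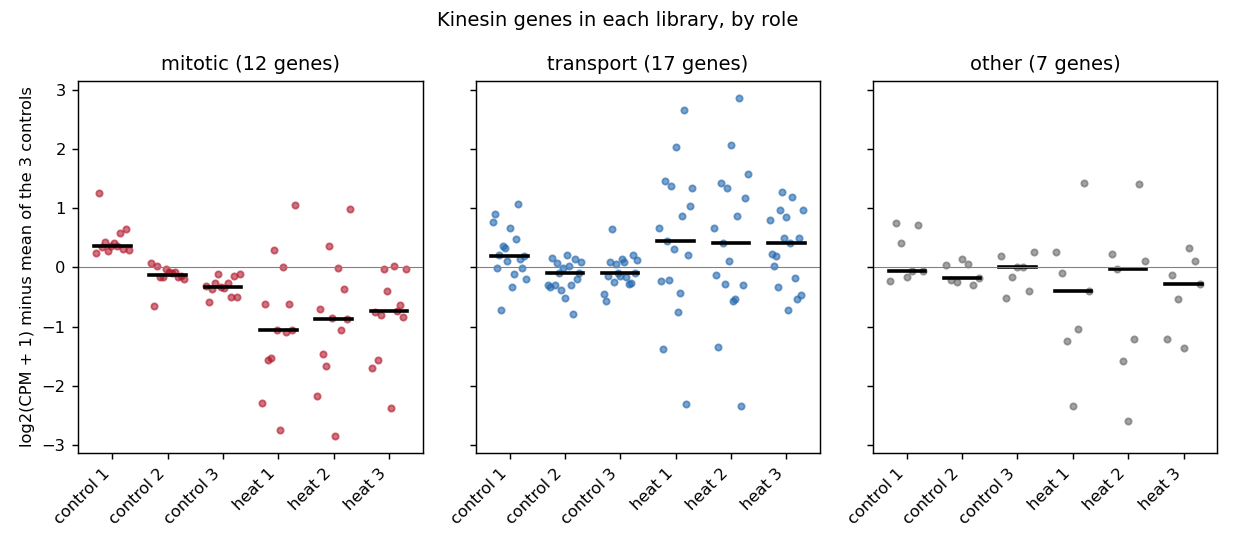
Each point is 1 kinesin gene in 1 library, as log2(CPM + 1) minus the mean of the 3 controls (y axis); black lines are medians over the genes of a role. The mitotic median is below 0 in all heat libraries (-1.06, -0.87 and -0.75), while transport genes spread to both sides around medians of 0.41 to 0.45.

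Which libraries entered the test decided the number of calls. Without control 1 and heat 3, 15 of 37 tested kinesins were called lower (40.5%) and 12 higher (32.4%), where 38.4% and 41.2% of all tested genes were called, so these shares lie near or below the background. The mitotic part was 8 lower and 2 higher (KIFC1 and KIF18B), and the transport part 4 lower and 8 higher. Both groups are then near-identical pairs of libraries. Without heat 3 alone 10 were called lower and 8 higher (17.7% and 18.4% of all genes), and without control 1 alone 6 and 6 (12.3% and 19.6% of all genes). Without control 2 or control 3 the test called 0% of all genes. Without heat 1 it called 0.0475% and without heat 2 0.0406%, and 0 kinesins in each of these 4 fits. In them 5 to 11 kinesins were lower and 4 or 5 higher at an unadjusted p below 0.05, without a share of all genes to set beside these counts. KIF20B, KIF11, KIF15, KIF27, KIF1C and KIFC3 kept their direction in all of them.

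Genes that work with kinesins were read from 4 lists in the same fit. Of 23 tested mitotic partners, 5 fell (21.7%, where 4.32% of all tested genes did) and 0 rose (6.71% of all), with a median log2 fold change of -0.88. The median was -1.14 without control 1 and heat 3, with 19 called lower and 2 higher, where 38.4% and 41.2% of all genes were called. The 5 called lower with all libraries were the spindle assembly protein HMMR, CENPE, the kinetochore cofactor KNSTRN, the cyclin CCNB2 and the topoisomerase TOP2A. HMMR fell from 56.4 ± 8.49 to 12.3 ± 3.37 CPM and CCNB2 from 25.6 ± 3.88 to 7.51 ± 4.42 CPM (edgeR adjusted p = 0.0276 and 0.0453). CENPE was at 356, 196 and 178 CPM in the controls and 48.3, 48.4 and 69.1 CPM in heat, and TOP2A at 223, 162 and 116 against 47.4, 55.9 and 47.8 CPM. The groups did not overlap for these genes. KNSTRN, from 10.97 ± 1.63 to 3.77 ± 1.24 CPM, is the fifth by size of change, and was named after its value was seen. Partners of the cytokinesis motors did not pass. RACGAP1, which forms centralspindlin with KIF23, and PRC1, the bundler that recruits KIF4A, overlapped between groups, with log2 fold changes of -0.62 ± 0.36 and -0.54 ± 0.33 (edgeR adjusted p = 0.257 and 0.275). ECT2, which activates RhoA at the division plane, and the ring scaffold ANLN did not overlap, at -0.88 ± 0.27 and -1.49 ± 0.48 (edgeR adjusted p = 0.0697 and 0.0775). These 4 values were -1.14, -0.31, -0.98 and -1.61 without control 1 and heat 3. The 2 partners called higher in that fit were CIT (citron kinase) and INCENP, at 1.58 and 0.45. With all libraries they were at -0.14 ± 0.78 and -0.18 ± 0.42 (edgeR adjusted p = 0.911 and 0.787). CIT had 44.7 CPM in control 1, 6.51 and 4.96 CPM in control 2 and 3, and 17.8, 17.1 and 15.8 CPM in heat. The list of 19 tested regulators of mitotic transcription also held the heat shock factors HSF1 and HSF2. Of these 19 genes 1 passed (5.26% lower, near the 4.32% of all genes). It was the pocket protein RBL1, which fell from 17.4 ± 4.79 to 5.36 ± 2.60 CPM. FOXM1, an activator of mitotic genes, was at 2.10 ± 1.00 and 2.11 ± 0.417 CPM. Every heat library lay above every control for 6 genes of this list, HSF1 among them (31.6%, against 20.9% of all tested genes). It lay below for 5, HSF2 among them (26.3%, against 16.8%). Those above also included MYBL2, at 14.8 ± 8.95 against 37.1 ± 13.1 CPM, and E2F1, at 2.55 ± 0.438 against 5.07 ± 0.255 CPM. Neither MYBL2 nor E2F1 passed (edgeR adjusted p = 0.0984 and 0.0869). The list's median was 0.034, and 0.24 without control 1 and heat 3. In that fit 9 of the 19 were called higher and 7 lower, where 41.2% and 38.4% of all genes were.

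Of 11 tested cargo adaptors, and of 22 tested subunits and regulators of dynein, the motor that moves opposite to most kinesins, none passed with edgeR. At an unadjusted p below 0.05 edgeR gave 7 and 5, and the share of all genes at that threshold is not given here. DESeq2 called 5 in each list, where it called 2118 higher and 1792 lower of all 14242 tested genes. The adaptors had a median log2 fold change of 0.57, and of 0.16 without control 1 and heat 3. Among them 4 lay above every control in all heat libraries (36.4%, against 20.9% of all tested genes) and 3 below (27.3%, against 16.8%). Those above were the light chains KLC2 and KLC4 and the scaffolds MAPK8IP2 and MAPK8IP3, with log2 fold changes of 0.57 ± 0.31, 0.77 ± 0.32, 1.25 ± 0.40 and 1.17 ± 0.43. KLC1, another kinesin light chain, was at 85.3 ± 34.2 against 75.7 ± 16.9 CPM. SPAG9, a scaffold for kinesin-driven vesicles, was at 153 ± 13.3 against 88.6 ± 26.7 CPM, and KIFBP, which binds and blocks motor domains, at 36.2 ± 5.01 against 20.2 ± 5.27 CPM, both below the controls without overlap, as was KIFAP3. The dynein list had a median of -0.25, and of -0.83 without control 1 and heat 3. In that fit 13 of its 22 members were called lower and 5 higher, where 38.4% and 41.2% of all genes were. DYNC1LI2, a dynein light intermediate chain, was at 364 ± 88.2 against 167 ± 70.2 CPM (-1.12 ± 0.41, edgeR adjusted p = 0.101). The dynein heavy chain DYNC1H1 was at 554 CPM in control 1, 79.1 and 116 CPM in control 2 and 3 and between 546 and 619.9 CPM in heat. The stromal sum was also highest in control 1 among the controls, at 44323 CPM against 3227 and 3245 CPM. In heat 1, 2 and 3 that sum was 63496, 56397 and 20575 CPM, whereas DYNC1H1 hardly differed between them. The part of stromal markers in this level was not tested.

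One property that did not enter the choice of genes was the genomic span, taken from RefSeq for 35 of the tested members. Within each role the longer genes tended to have the lower log2 fold changes. Spearman's rho was -0.72 over 12 mitotic, -0.62 over 16 transport and -0.68 over 7 other kinesins, and -0.34 over all 35 kinesins together. Over 10544 tested genes with a span it was -0.17. Without control 1 and heat 3 these values were -0.52, -0.61, -0.50, -0.41 and -0.095. The genes share libraries, and span was examined after the fold changes were known, so the values are a description only. Among mitotic genes KIF20B, KIF11 and KIF15 span 82.0, 51.5 and 74.5 kb, while KIF22, KIF18B and KIFC1 span 18.6, 21.4 and 20.9 kb. KIF1C and KIFC3 span 24.7 and 36.1 kb. KIF4A, the longest mitotic gene at 128 kb, did not have the lowest fold change. KIF20A, the shortest tested mitotic gene at 10.8 kb, and KIF2C, at 21.1 kb, had log2 fold changes of -0.82 and -0.62. Both had every heat library below every control.

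**Figure D5:**
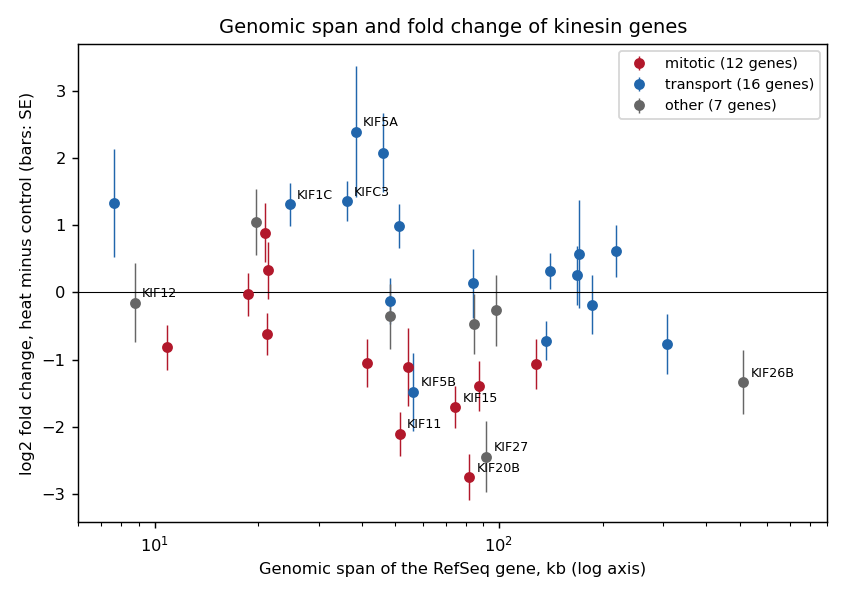
Log2 fold change (y axis, heat minus control, bars SE) against the genomic span of the RefSeq gene (x axis, kb, log scale) for 35 kinesin genes, coloured by role. Points of each role slope downward (rho -0.72, -0.62 and -0.68), with wide scatter between roles.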

How the data were processed

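Granulosa cell RNA was sequenced in 6 libraries, 3 per group, with groups from the labels. Per the submitters' processing notes, FastQC 0.11.4, Trim Galore and STAR were used with Sscrofa11.1; not given in the sources used here are the counting tool, its strand setting and the annotation release, so reads in overlapping genes are uncertain. The authors' deposited count table holds raw counts per Ensembl gene. The deposited normalized signal, as made by the authors, is these counts divided by 1 factor per library for 13298 genes; multiplying back gave whole reads for 100% of values (tolerance 1e-06).

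Symbols came from the reference table, which named 15623 identifiers, and positions from RefSeq (Sscrofa11.1). Genes were kept by edgeR's filterByExpr (minimum count 10), which left 14242, and edgeR 4.0.16 (R 4.3.3) tested heat against control with its quasi-likelihood F test, using TMM factors, robust dispersions and Benjamini-Hochberg adjustment over all tested genes, called below 0.05. SE was taken as |log2 fold change| / √F. Replicates had a common coefficient of variation of 43.6%, which with 3 libraries per group limits precision. In simulated data of 14242 genes the test recovered 2, 34, 80 and 92% of 50 genes changed 2-, 4-, 8- and 16-fold.

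The members, roles, partner lists and tests were chosen with earlier results of these data known. Every member is named. Levels per library are given for members called or without overlap between groups, and, chosen after their values were seen, for others in which control 1 or heat 3 stood apart, and for CENPE, TOP2A, FOXM1, KIFAP3 and KLC1; partner lists name called members, or examples where none was. Other partner genes and single markers, such as RACGAP1, ANLN, KIFBP, MYBL2, KRT7 and ACTA2, were named after their values were seen. Transcript lengths were not used here, so levels are not compared between genes and no member was picked by a length-scaled level, as the naming rule had asked; sequences were not analysed here either. Alternatives covered scaling, filters, a replicate block, DESeq2 1.42.0, limma-voom 3.58.1, limma on the log2 normalized signal and left-out libraries. A fit to recovered reads and one with near-identical libraries summed were added after seeing the data.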

Additional observations from a re-analysis of the deposited data

How the results depend on the processing

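KIF20B, KIF11, KIF15, KIF27, KIF1C and KIFC3 kept their direction in every alternative that tested them; KIF27 was not tested under a filter of 10 CPM. They were called in each except the fits without control 2, control 3, heat 1 or heat 2, the fit with near-identical libraries summed and, for KIF1C, the fit with no filter; the cause was not tested. With all libraries 956 genes were higher and 615 lower, 2 and 4 kinesins, and 6 partner genes in either direction. Leaving out 1 library at a time gave 0 to 3021 higher and 0 to 2713 lower genes, 0 to 8 and 0 to 10 kinesins, and 0 to 35 partner genes; the median log2 fold change lay between -1.31 and -0.65 for mitotic and between 0.28 and 0.64 for transport kinesins. Without control 1 and heat 3 together there were 6285 higher and 5857 lower genes, 12 and 15 kinesins and 64 partner genes, with a transport median of 0.25. With near-identical libraries summed there were 2 and 0 genes, 0 and 0 kinesins and 0 partner genes, with a transport median of 0.40. DESeq2 called 2118 higher and 1792 lower genes, 6 and 9 kinesins and 28 partner genes. Library size alone, which moved the median of all genes from 0.052 to 0.17, gave 1583 higher and 416 lower genes and 4 kinesins higher. No filter gave 1607 higher and 850 lower genes, and the filter of 10 CPM 532 and 396, with a transport median of 0.34. Limma on the normalized signal (pseudocount 1) called 1182 higher and 950 lower genes and 4 kinesins higher. Transport medians were 0.31 there, with pseudocount 0.5 and in limma-voom, and 0.32 on recovered reads, where 981 genes were higher and 650 lower.

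The replicate number as a block gave 2104 higher and 1300 lower genes, 3 and 6 kinesins, 18 partner genes and a transport median of 0.34. Deviations of same-numbered libraries correlated at 0.30, -0.23 and 0.22. Control 1 correlated best with heat 1 and control 3 with heat 3, but control 2 also correlated best with heat 3. With 3 libraries per group, 1 of them apart in each, these values cannot decide whether the numbers pair the samples.

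Signs changed only for uncalled kinesins. With 1 library left out, KIF24 ran from -0.62 to 0.41, KIF13B from -0.47 to 0.40, KIF12 from -0.44 to 0.28, KIF3B from -0.52 to 0.048, KIF22 from -0.20 to 0.18, KIF1A from -0.23 to 0.56, KIF1B from -0.29 to 0.46 and KIF5C from -0.15 to 1.04. Without control 1 and heat 3 the values were 0.45 for KIF24, 0.25 for KIF13B, 0.14 for KIF12, 0.18 for KIF22, -0.094 for KIF1B and -0.18 for KIF5C. KIF13B was 0.030 by library size alone, and KIF3B 0.021 with libraries summed. KIF22 was 0.0098 with upper quartile factors, 0.13 by library size alone, 0.0045 with the replicate block, 0.019 in limma-voom, and 0.0025 and 0.0026 on the normalized signal with pseudocounts of 1 and 0.5.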
